A study of Homo sapiens with 2 samples.

Results

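Cytochrome P450 enzymes were read out as transcripts in PLC cells, a cell line from a human liver cancer, with and without forced expression of the secreted protease PRSS35. The members were taken by gene name: every name made of CYP, a family number, a subfamily letter and a gene number, without CYP51A1, which gave 55 of the 26228 gene names found in both libraries. Joined rows, in which several names share 1 value, were kept for each name and are pointed out.

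The study asked what a secreted protease does in hepatocellular carcinoma, and sequenced RNA from 2 stable cell populations with 1 library each. Both were PLC cells infected with lentivirus made from the pCDH vector and selected with puromycin, and the labels give no treatment for either. EV cells carried the empty vector and are labelled as wild-type. PRSS35 cells carried the human PRSS35 coding sequence and are labelled as PRSS35 over-expression. Selection on puromycin leaves a population of cells with insertions at many sites, and no clone was described. PRSS35 was at 0.643 FPKM in EV and 1836 FPKM in PRSS35 cells.

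FPKM, the unit of the deposited tables, counts fragments per length of transcript, scaled by the mapped fragments of the library, so levels can be set side by side between genes. Each value came with the lower and upper bound that Cufflinks put around it. These bounds hold counting and assignment error within a library only, and with 1 library per condition no spread between cultures was measured, so p-values are left out. Differences are log2((FPKM in PRSS35 + 1) / (FPKM in EV + 1)), which understates the change of low genes. Below, "apart" means that the intervals of the libraries do not overlap, and "expressed" means a mean of at least 1 FPKM over both libraries. In RNA from a whole population, fewer cells with a transcript and less RNA per cell cannot be told apart.

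The liver label was checked against marker genes. Of 10 hepatocyte markers, 9 were expressed, led by SERPINA1, which encodes the secreted antitrypsin, at 2528 FPKM in EV and 4239 FPKM in PRSS35 cells. Albumin, the main plasma protein of the adult hepatocyte, was at 4.05 and 5.21 FPKM, and FGB, a fibrinogen chain, stayed under 1 in both. The 3 endothelial markers summed to 0.0373 and 0.0307 FPKM and the 4 leukocyte markers to 0 and 0.234 FPKM, with PTPRC and CD3E listed at 0. The 5 fibroblast or stellate markers summed to 1.75 and 2.03 FPKM, with DCN and LUM listed at 0, and the 3 cholangiocyte markers, among them KRT7 and KRT19, to 16.2 and 17.3 FPKM. The 10 hepatocyte markers together summed to 3606 FPKM in EV and 5331 FPKM in PRSS35 cells, and most of that difference came from SERPINA1. Of the 9 expressed, 5 were apart and higher in PRSS35 cells, beside 25.1% of all expressed genes. APOA1, at 576 and 494 FPKM, and APOA2, at 218 and 178 FPKM, were apart and lower, beside 15.5% of all expressed genes. Whether these marker differences have a part in the P450 differences was not tested.

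P450 enzymes are haem proteins that insert an oxygen atom into lipid-soluble compounds. Most sit in the endoplasmic reticulum and draw electrons from the reductase POR, and a smaller set in mitochondria is fed by a ferredoxin. The liver is known for the families that oxidise drugs and for those that turn cholesterol into bile acids, while other members make or break down steroid hormones, vitamin D, retinoic acid and fatty acid signals. Several families lie in gene clusters of near-identical copies, and this bears on how reads are assigned.

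All these enzymes hold the haem iron through a cysteine near their carboxyl end. In the longest coding transcript of the GENCODE annotation on GRCh37, the assembly that hg19 also uses, 52 of the 55 members had a stretch of a phenylalanine, 2 free residues, a glycine, 3 free residues, the cysteine, 1 free residue and a glycine or alanine. Of these 52 stretches, 49 had an arginine as the sixth residue, and CYP20A1, CYP4F8 and CYP8B1 did not match the pattern. The 30 coding bases of this stretch are shown for the highest member and for pairs of relatives that are compared below, 5′ to 3′ on the coding strand, with the cysteine codon in capitals.
CYP27A1: tttggctatggggtccgggccTGCctgggc
CYP1A1: tttggcatgggcaagcggaagTGTatcggt
CYP1A2: tttggcatgggcaagcgccggTGTatcggg
CYP2C18: ttctcagcaggaaaacggatgTGTatggga
CYP2C8: ttctcagcaggaaaacgaattTGTgcagga
CYP2B6: ttctccttagggaagcggattTGTcttggt
CYP2S1: ttctccttagggaagcgtgtcTGCcttgga
CYP2D6: ttctcagcaggccgccgtgcaTGCctcggg
CYP2D7: ttctcagcaggccgccgtgcaTGCctcggg
On GRCh37 the CYP27A1 stretch is in exon 8 of 9 at chr2:219679409-219679438 on the plus strand, that of CYP1A1 in exon 7 of 7 at chr15:75012992-75013021 on the minus strand, and that of CYP1A2 in exon 7 of 7 at chr15:75047229-75047258 on the plus strand. In the CYP2 genes it is split by the last intron. Its outer bounds are chr10:96493186-96495039 for CYP2C18 on the plus strand and chr10:96797047-96798663 for CYP2C8 on the minus strand. They are chr19:41518711-41522570 for CYP2B6 and chr19:41711995-41712204 for CYP2S1, both on the plus strand. CYP2D6, at chr22:42522735-42522862, and CYP2D7, at chr22:42536448-42536575, lie on the minus strand. CYP2D6 and CYP2D7 differed at 0 of the 30 bases, CYP1A1 and CYP1A2 at 4, and both CYP2C18 and CYP2C8 and CYP2B6 and CYP2S1 at 5.

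Most of the family was silent or nearly so in both populations. Of the 55 members, 24 were listed at 0 in both libraries, 17 lay under 1 FPKM in both with a value above 0 in at least 1, and 14 reached 1 FPKM in at least 1 library. The same 14 had a mean of at least 1, though CYP2D6 did so only through the PRSS35 library. The number above 0 was 25 in EV and 31 in PRSS35 cells, and all 25 were above 0 in both. Of all gene names, 15616 of 26229 were above 0 in EV and 15868 of 26232 in PRSS35 cells. The 6 members listed at 0 in EV only ran from 0.0144 to 0.152 FPKM in PRSS35 cells. Of the 17 low members, 12 had the higher value in PRSS35 cells and 5 in EV, and 0 had intervals apart. Over all expressed genes the higher value was in PRSS35 cells for 60.2%, and the share among all genes under 1 FPKM was not counted. No member was flagged as a failed estimate in either library. A listed 0 gives no ratio, so no fold is given against it.

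The transcripts that were present were dominated by a mitochondrial sterol hydroxylase. CYP27A1 alone made up 37.7% of the summed P450 FPKM in EV and 35.5% in PRSS35 cells, and together with CYP1A1 it made up 52.2% and 48.8%. The summed FPKM of the family was 80.5 in EV and 92.9 in PRSS35 cells, a log2 ratio of 0.21, or 50.1 and 59.9 without CYP27A1. The first 3 places were the same in both libraries, CYP27A1 before CYP1A1 before CYP2J2, and each interval was apart from that of the next gene. In EV, CYP20A1, CYP2S1, CYP27B1 and CYP2C18 followed with neighbouring intervals that overlapped, CYP2C18 was apart from CYP24A1, and further neighbours overlapped. In PRSS35 cells, CYP2J2 was apart from CYP2C18, and neighbours further down the order overlapped. Over the 14 members, the order in EV and in PRSS35 had a Spearman rho of 0.79, with 1 point per gene from the same pair of libraries.

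**Figure D1:**
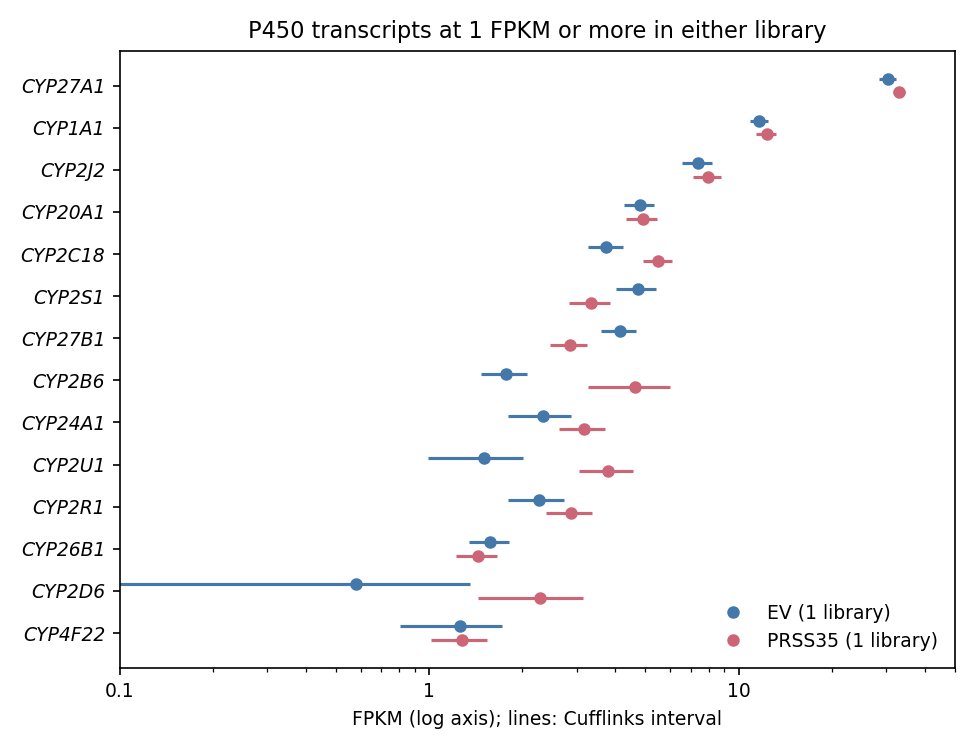
FPKM on a log axis of the 14 P450 genes at 1 FPKM or more in either library, in EV (blue) and PRSS35 cells (red), 1 library each; points are the deposited values, lines the Cufflinks intervals, and the EV line of CYP2D6 reaches down to 0 and leaves the axis. CYP27A1 lies at 30.4 and 33.0, and the red and blue lines are apart for CYP2C18, CYP2S1, CYP27B1, CYP2B6, CYP2U1 and CYP2D6.

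The members with the highest log2 differences between the populations were CYP2D6 at 1.06, CYP2B6 at 1.02 and CYP2U1 at 0.94, of which CYP2D6 passed the filter on low values only through the PRSS35 library. Of the 14 expressed members, 2 were higher by 2-fold or more in PRSS35 cells, CYP2B6 and CYP2D6, and 0 were lower by that much. Of all 11118 expressed genes, 2.73% were higher and 2.48% lower by 2-fold or more, and in the family 2 of 14 genes make the whole count. With the differences centred on their median over all expressed genes, 0.06, no member reached 2-fold, as CYP2B6 then had a log2 difference of 0.96 and CYP2D6 of 0.99. By intervals, 4 of the 14 were apart and higher (CYP2C18, CYP2B6, CYP2U1 and CYP2D6) and 2 were apart and lower (CYP2S1 and CYP27B1), where 25.1% of all expressed genes were apart and higher and 15.5% apart and lower. These shares lie near the background. The values were higher in PRSS35 cells for 11 members and lower for 3, with a median log2 difference of 0.10 and a range from -0.41 to 1.06. Over all expressed genes 60.2% had the higher value in PRSS35 cells.

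**Figure D2:**
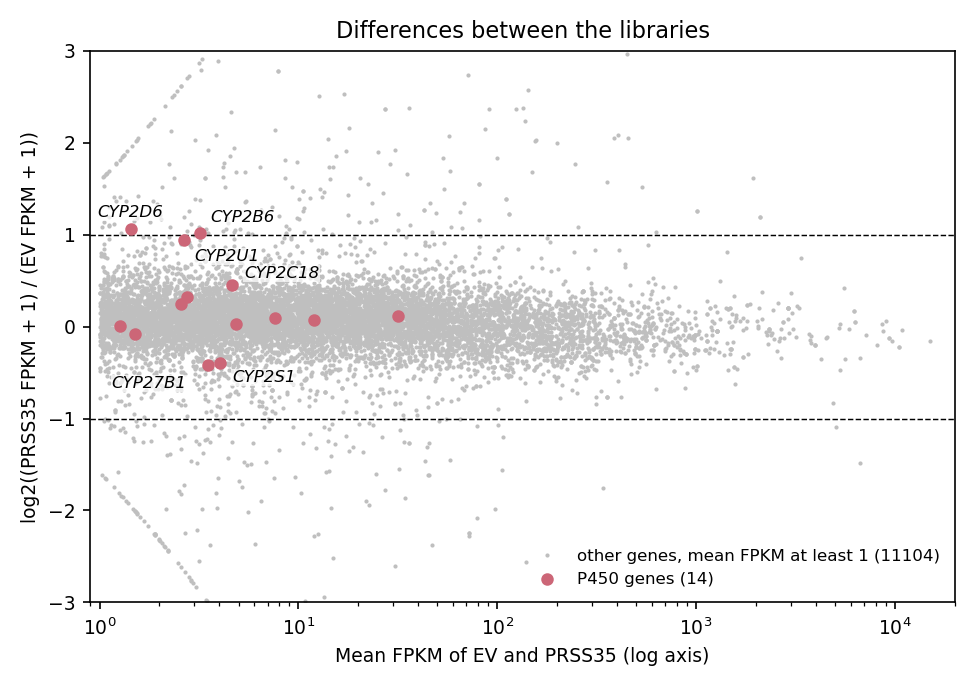
Difference between the libraries, as log2((PRSS35 FPKM + 1) / (EV FPKM + 1)), against the mean FPKM on a log axis for 14 P450 genes (red) and 11104 other expressed genes (grey), of which 201 lie outside the axes; dashed lines mark 2-fold. CYP2D6 at 1.06 and CYP2B6 at 1.02 lie just above the upper line and CYP2U1 at 0.94 just below it, while CYP27B1 at -0.41 and CYP2S1 at -0.40 are the lowest members. With FPKM divided by its sum over each library these 2 were at 0.14 and 0.18, below the median of 0.68 over all expressed genes.

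Among the 17 members listed for drugs and other foreign compounds, 4 reached 1 FPKM, 6 were listed at 0 in both libraries, and the summed FPKM was 17.8 in EV and 25.2 in PRSS35 cells. CYP1A1, which oxidises polycyclic aromatic hydrocarbons and is the classical target of the aryl hydrocarbon receptor AHR, was the highest, at 11.7 FPKM (interval 10.9 to 12.5) in EV and 12.3 FPKM (11.4 to 13.3) in PRSS35 cells. The intervals overlapped and the log2 difference was 0.07. CYP1A2, its neighbour on chromosome 15 and a major caffeine-oxidising enzyme of liver, was listed at 0 in both, and CYP1B1, a further AHR target, was at 0.0326 and 0.0586 FPKM.

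CYP2B6, which oxidises bupropion and efavirenz and is a standard readout of the receptor CAR, was at 1.78 FPKM (1.48 to 2.08) in EV and 4.63 FPKM (3.27 to 5.99) in PRSS35 cells. The intervals were apart, the log2 difference was 1.02 and the plain ratio 2.60. The higher value was the less precise of the pair: the upper bound lay 17.0% above the value in EV and 29.3% above it in PRSS35 cells. Were these bounds counting error alone, they would correspond to 138.9 and 46.5 fragments, but they also hold assignment error. The lower number thus stands beside the higher FPKM, and neither is a count of reads. Of the stretches of 50 bases in the longest CYP2B6 transcript, 9.99% also occur in CYP2B7P, a pseudogene listed at 0 in both libraries. CYP2B6 moved from percentile 37.8 among the gene names above 0 in EV to percentile 52.1 in PRSS35 cells.

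CYP2D6, which activates codeine and clears many antidepressants, was at 0.581 FPKM (0 to 1.36) in EV and 2.29 FPKM (1.44 to 3.14) in PRSS35 cells. The intervals were apart by a narrow margin, with a log2 difference of 1.06. Read as counting error alone, the interval width would put the EV value at about 2.25 fragments and the PRSS35 value at 29.0. Its row is joined with LOC101929829 in both libraries and began on hg19 at chr22:42521263 in EV and at chr22:42522349 in PRSS35 cells, so the values were not measured over the same stretch. Of its 50-base stretches, 41.2% also occur in CYP2D7 or CYP2D8P, and CYP2D7, the neighbouring copy with the same 30 bases at the haem cysteine, was at 0.170 and 0.255 FPKM. How reads were split between these copies was not tested, and the CYP2D6 values are uncertain for that reason.

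CYP2C18, the member of the CYP2C group that is known to give little protein in liver, was at 3.74 FPKM (3.25 to 4.23) in EV and 5.50 FPKM (4.89 to 6.11) in PRSS35 cells. The intervals were apart, with a log2 difference of 0.46. It is the only one of the 14 expressed members that was taken from the annotation in both libraries rather than assembled from the reads, so its gene model was the same in both. CYP27A1 and CYP4F22 were assembled in EV only, CYP1A1 in PRSS35 cells only, and the other 10 in both. Of the 50-base stretches of CYP2C18, 0.84% occur in another CYP2C gene. The GENCODE annotation has a further coding gene without a symbol that shares exons with it on the same strand.

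Several drug enzymes that lead in adult liver stayed under 1 FPKM in both libraries. CYP3A4, the broadest drug oxidase, and CYP2C8 were listed at 0 in both libraries. CYP3A5 had 0.152 FPKM in PRSS35 cells and was listed at 0 in EV, the highest among the members listed at 0 in EV only. CYP3A7, the fetal liver form, was listed at 0 in EV and had 0.0704 FPKM in PRSS35 cells on a row joined with the read-through CYP3A7-CYP3A51P, and 71.8% of its 50-base stretches occur there or in other CYP3A genes. CYP2E1, the ethanol-oxidising form, and CYP2A6, the nicotine oxidase, were listed at 0 in EV and had 0.0229 and 0.0214 FPKM in PRSS35 cells. Read as counting error alone, their bounds there would correspond to 1 fragment each.

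Among the 12 members for fatty acids and eicosanoids, 3 reached 1 FPKM, 6 were listed at 0 in both libraries, and the summed FPKM was 11.2 in EV and 14.6 in PRSS35 cells. CYP2J2, which turns arachidonic acid into epoxides, was at 7.39 FPKM (6.58 to 8.21) in EV and 7.94 FPKM (7.11 to 8.78) in PRSS35 cells, with intervals that overlapped. CYP2U1, a hydroxylase of long-chain fatty acids, was at 1.5 FPKM (0.995 to 2.0) in EV and 3.80 FPKM (3.04 to 4.55) in PRSS35 cells. Its intervals were apart, with a log2 difference of 0.94 and a plain ratio of 2.53, just under the 2-fold line on the log2(FPKM + 1) scale. Its exons overlap those of CYP2U1-AS1 and of a further noncoding RNA on the opposite strand, and reads of the strands cannot be told apart if the library did not keep strand, which the sources used here do not state. CYP4F22, which hydroxylates the very long fatty acids of skin ceramides, was at 1.26 FPKM (0.804 to 1.72) and 1.28 FPKM (1.02 to 1.54), with overlapping intervals. CYP4V2, whose loss causes a retinal dystrophy, lay below 1 in both, at 0.755 and 0.718 FPKM. CYP4A11 and CYP4F2, the main fatty acid omega-hydroxylases of liver and kidney, were listed at 0 in both.

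The 6 members for bile acids and cholesterol held the highest single transcript beside 3 that were listed at 0 in both libraries. CYP27A1, the mitochondrial enzyme that hydroxylates the sterol side chain, was at 30.4 FPKM (28.5 to 32.3) in EV and 33.0 FPKM (31.5 to 34.4) in PRSS35 cells. Its intervals overlapped and the log2 difference was 0.11. It is at percentile 78.9 of the gene names above 0 in EV and at percentile 79.7 in PRSS35 cells. CYP7A1, the rate-limiting enzyme of the classical bile acid pathway, was listed at 0 in both libraries, as were CYP7B1 and CYP8B1, which act after CYP27A1 and CYP7A1. CYP46A1, the brain form that hydroxylates cholesterol, was at 0.335 and 0.194 FPKM, and CYP39A1, which acts on oxysterols, at 0.0479 and 0.0151 FPKM.

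The 6 members for steroid hormones summed to 0.0576 FPKM in EV and 0.173 FPKM in PRSS35 cells, all of it from CYP11A1, which cuts the cholesterol side chain at the start of steroid synthesis. CYP11B1, CYP11B2, CYP17A1, CYP19A1 and CYP21A2 were listed at 0 in both. CYP21A2 has a row of its own and a row joined with its pseudogene CYP21A1P, with which 47.6% of its 50-base stretches are shared.

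Among the 7 members for vitamin D and retinoids, 4 reached 1 FPKM, and the summed FPKM was 10.8 in EV and 11.2 in PRSS35 cells. Of these 4, CYP27B1 had intervals apart and 3 had intervals that overlapped. CYP27B1, which makes the active hormone, was at 4.13 FPKM (3.60 to 4.67) in EV and 2.85 FPKM (2.46 to 3.25) in PRSS35 cells, a log2 difference of -0.41 with intervals apart. With FPKM divided by its sum over each library the difference was 0.14, below the median of 0.68 over all expressed genes in that setting. Centred on the median over all expressed genes it was -0.48. In the PRSS35 library alone, a further locus without a name was assembled inside the CYP27B1 span, at chr12:58159290-58159710 on hg19, with 2.2 FPKM (0.779 to 3.62). In the GENCODE annotation, exons of CYP27B1 meet those of METTL1 on the same strand. There the gene reaches position 58162769, while the deposited rows ended at 58160976 in EV and 58161350 in PRSS35 cells. CYP2R1, which makes the circulating precursor, was at 2.26 FPKM (1.79 to 2.73) and 2.88 FPKM (2.38 to 3.37). CYP24A1, which breaks the hormone down and is a target of the vitamin D receptor, was at 2.34 FPKM (1.80 to 2.87) and 3.17 FPKM (2.63 to 3.71). Both pairs of intervals overlapped. The receptor gene VDR was at 0.138 FPKM in EV and 0.199 FPKM in PRSS35 cells.

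The retinoic acid hydroxylases were low. CYP26B1 was at 1.58 FPKM (1.35 to 1.81) in EV and 1.44 FPKM (1.22 to 1.66) in PRSS35 cells, with overlapping intervals, and a locus without a name and with 6.88 FPKM was assembled inside its span in the PRSS35 library. CYP26A1, the form that retinoic acid induces in liver, was at 0.512 and 0.827 FPKM, with overlapping intervals. CYP26C1 was listed at 0 in both, and CYP27C1, a retinoid desaturase of skin, had 0.0144 FPKM in PRSS35 cells after a listed 0 in EV.

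Of the 6 members without a settled substrate, 2 were expressed, and the summed FPKM was 9.65 in EV and 8.35 in PRSS35 cells. CYP20A1 was at 4.79 FPKM (4.25 to 5.33) and 4.90 FPKM (4.33 to 5.47), and its intervals overlapped. CYP2S1, an enzyme mainly of epithelia outside the liver, was at 4.72 FPKM (4.03 to 5.40) in EV and 3.34 FPKM (2.83 to 3.84) in PRSS35 cells, a log2 difference of -0.40 with intervals apart. With FPKM divided by its sum over each library the difference was 0.18, below the median of 0.68 over all expressed genes in that setting. Centred on the median over all expressed genes it was -0.46. None of the 50-base stretches of CYP2S1 occurs in another P450 gene. CYP2W1, a form found in fetal gut and in colon tumours, was at 0.141 and 0.110 FPKM, and CYP2A7, CYP4X1 and CYP4Z1 were listed at 0 in both.

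Genes that lie side by side differed widely in level. With neighbours set at no more than 500000 bases, 34 of the members fell into 9 clusters and 21 stood alone. In the clusters, 18 of 34 were listed at 0 in both libraries and 6 reached 1 FPKM; among the 21 that stood alone, 6 were listed at 0 in both and 8 reached 1 FPKM. In the cluster of 4 CYP2C genes on chromosome 10, CYP2C18 alone reached 1 FPKM, while CYP2C19, listed at 0 in EV, had 0.0840 FPKM in PRSS35 cells. In the cluster of 6 genes on chromosome 19 from CYP2A6 to CYP2S1, only CYP2B6 and CYP2S1 reached 1 FPKM, and these were the pair that differed in opposite directions on the FPKM scale. After division by the sum CYP2S1 was at 0.18, below the median of 0.68 over all expressed genes. The 4 CYP3A genes on chromosome 7 stayed at or below 0.152 FPKM, and the 5 genes on chromosome 1 from CYP4B1 to CYP4A22 were listed at 0 in both libraries. Of the 6 CYP4F genes on chromosome 19, CYP4F22 reached 1 FPKM, CYP4F3 was at 0.224 and 0.429 FPKM, CYP4F12 was at 0.0844 and 0.392 FPKM, and 3 were listed at 0 in both.

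**Figure D3:**
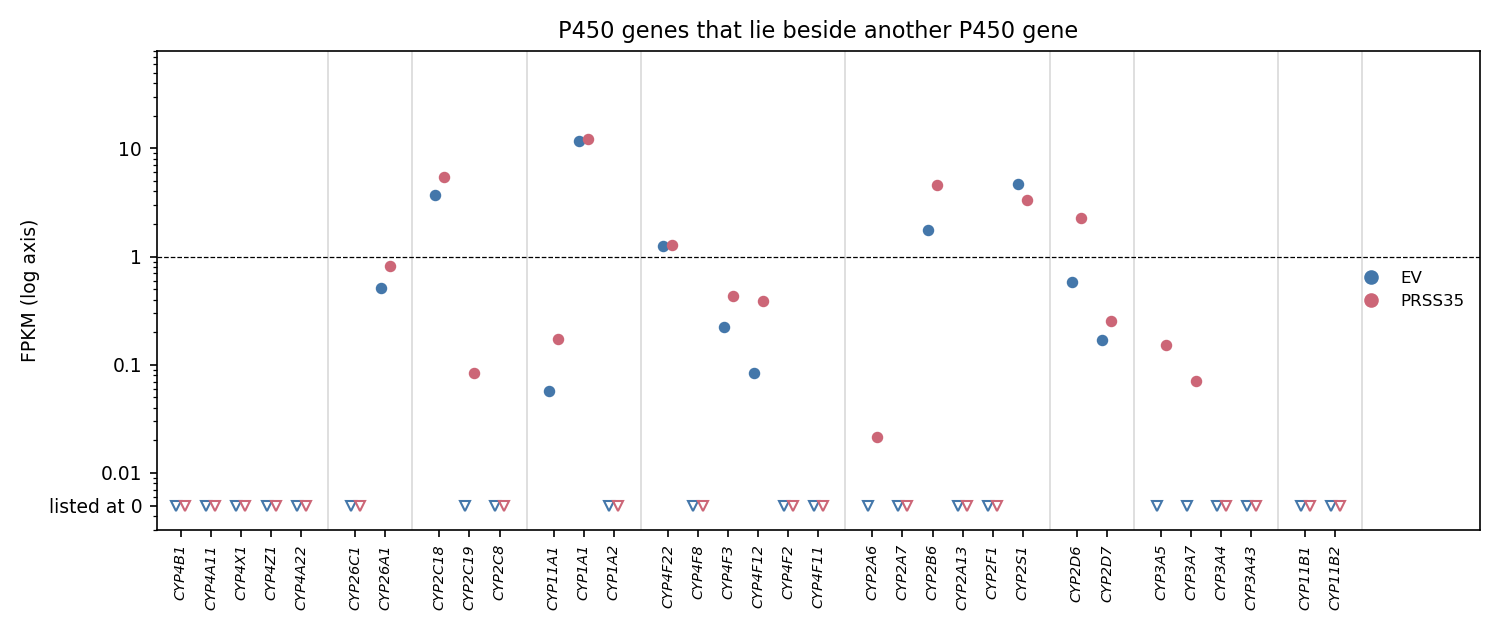
FPKM on a log axis of 33 of the 34 P450 genes with another P450 gene within 500000 bases (1 is not drawn), split by grey lines into 9 clusters and in genomic order within each, in EV (blue) and PRSS35 cells (red); open triangles mark a listed 0, and the dashed line marks 1 FPKM. In 6 of the 33 genes drawn a point lies above the line, and 18 have an open triangle in both libraries.

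CYP1A1 and CYP1A2 show this most plainly, as they lie next to each other on opposite strands and differ at 4 of 30 bases around the haem cysteine, while CYP1A2 was listed at 0 and CYP1A1 was the highest of the drug enzymes. RefSeq promoters on GRCh38.p14, from 250 bases before to 50 after the start, were searched on both strands for TATAAA, the TATA box, and for GCGTG, the core that AHR and its partner bind. The stretch of 34 bases from position -57 to position -24, counted from the start, is shown for both genes because it holds their matches, which are in capitals, at chr15:74725552-74725585 on the minus strand for CYP1A1 and at chr15:74748788-74748821 on the plus strand for CYP1A2.
CYP1A1: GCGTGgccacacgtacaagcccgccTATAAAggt
CYP1A2: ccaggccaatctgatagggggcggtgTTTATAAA
The CYP1A1 stretch holds GCGTG and TATAAA, and that of CYP1A2 holds TATAAA on both strands with an overlap and no GCGTG. The table had 51 promoter entries for 38 members. TATAAA occurred for 17 of these 38, namely for 3 of 10 that reached 1 FPKM and 14 of 28 that did not, and in 18 of the 51 entries beside 11.5% of all 35116 promoter entries. GCGTG occurred for 12 of 38, namely for 5 of 10 and 7 of 28, and in 12 of the 51 entries beside 36.5% of all entries. A match describes the letters in this window and is no evidence of binding, and bases farther from the start were not searched. Whether the matches have a part in the levels of CYP1A1 and CYP1A2 was not tested.

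The 9 redox partners of the enzymes summed to 738 FPKM in EV and 806 FPKM in PRSS35 cells, where all 55 P450 genes summed to 80.5 and 92.9. All 9 were expressed, 1 of them was higher by 2-fold or more in PRSS35 cells (2.73% of all expressed genes), 5 were apart and higher (25.1%), 1 was apart and lower (15.5%), and the median log2 difference was 0.15 beside 0.06 over all expressed genes. POR, the reductase of the endoplasmic reticulum, was at 171 FPKM in EV and 190 FPKM in PRSS35 cells with intervals apart. CYB5R3 and CYB5A, which pass electrons through cytochrome b5, were at 132 and 135 FPKM and at 68.7 and 93.6 FPKM. CYB5A was assembled from the reads in EV only. On the mitochondrial side, FDX1 is the ferredoxin that feeds CYP27A1, CYP11A1, CYP27B1 and CYP24A1. It was at 16.3 FPKM (15.5 to 17.2) in EV and 53.8 FPKM (49.7 to 58.0) in PRSS35 cells. Its intervals were apart and its log2 difference was 1.66, but the gene was taken from the annotation in EV and assembled from the reads in PRSS35 cells, so the gene model changed with the library. Its relative FDX1L was at 206 FPKM on a joined row in EV and at 175 FPKM on a row of its own in PRSS35 cells.

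Haem, the group every P450 carries, is made in 8 steps, and of the 9 genes listed for it 8 were expressed while ALAS2, the red-cell form of the entry enzyme, was listed at 0. None differed by 2-fold, 5 were apart and higher in PRSS35 cells, beside 25.1% of all expressed genes, and the median log2 difference was 0.22 beside 0.06. ALAS1, the form of the entry enzyme in liver, was at 41.4 FPKM (39.3 to 43.4) in EV and 49.3 FPKM (47.0 to 51.6) in PRSS35 cells, where alone it was assembled from the reads. UROD, which acts later in the pathway, was at 222 FPKM in EV and 219 FPKM in PRSS35 cells, with overlapping intervals. UROS was at 23.2 and 29.0 FPKM, with intervals apart.

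Receptors and liver factors that regulate P450 genes were split between present and missing. Of 16 listed, 12 were expressed, 0 differed by 2-fold, 4 were apart and higher in PRSS35 cells (AHR, HNF4A, CEBPA and FOXA2; 25.1% of all expressed genes), and the median log2 difference was 0.15 beside 0.06. The nuclear receptors that sense drugs were at or near 0: NR1I3, known as CAR, was listed at 0 in both, and NR1I2, known as PXR, was at 0.0129 FPKM in EV and listed at 0 in PRSS35 cells. NR1H4, the bile acid receptor FXR, was listed at 0 in both. Some liver factors were high, with CEBPA at 95.7 and 107 FPKM, FOXA2 at 54.9 and 63.3 FPKM and HNF4A at 41.2 and 47.7 FPKM. Others were lower, with FOXA1 at 6.08 and 6.16 FPKM, NR5A2 at 2.09 and 2.30 FPKM and PPARA at 0.875 and 1.24 FPKM.

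AHR itself was at 2.79 FPKM (2.54 to 3.04) in EV and 3.33 FPKM (3.06 to 3.60) in PRSS35 cells. Of the 4 genes listed as its targets beside the CYP1 family, 3 were expressed, and none was apart or differed by 2-fold. TIPARP, which marks AHR for removal, was at 1.95 and 2.37 FPKM, and NQO1, a quinone reductase, at 13.8 and 15.4 FPKM. TIPARP was assembled from the reads in PRSS35 cells only. ALDH3A1, an aldehyde dehydrogenase, was at 0.361 and 0.191 FPKM. AHRR, the repressor of AHR, had 105 and 117 FPKM, but on a row joined with other genes in both libraries, so the value does not belong to AHRR alone.

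**Figure D4:**
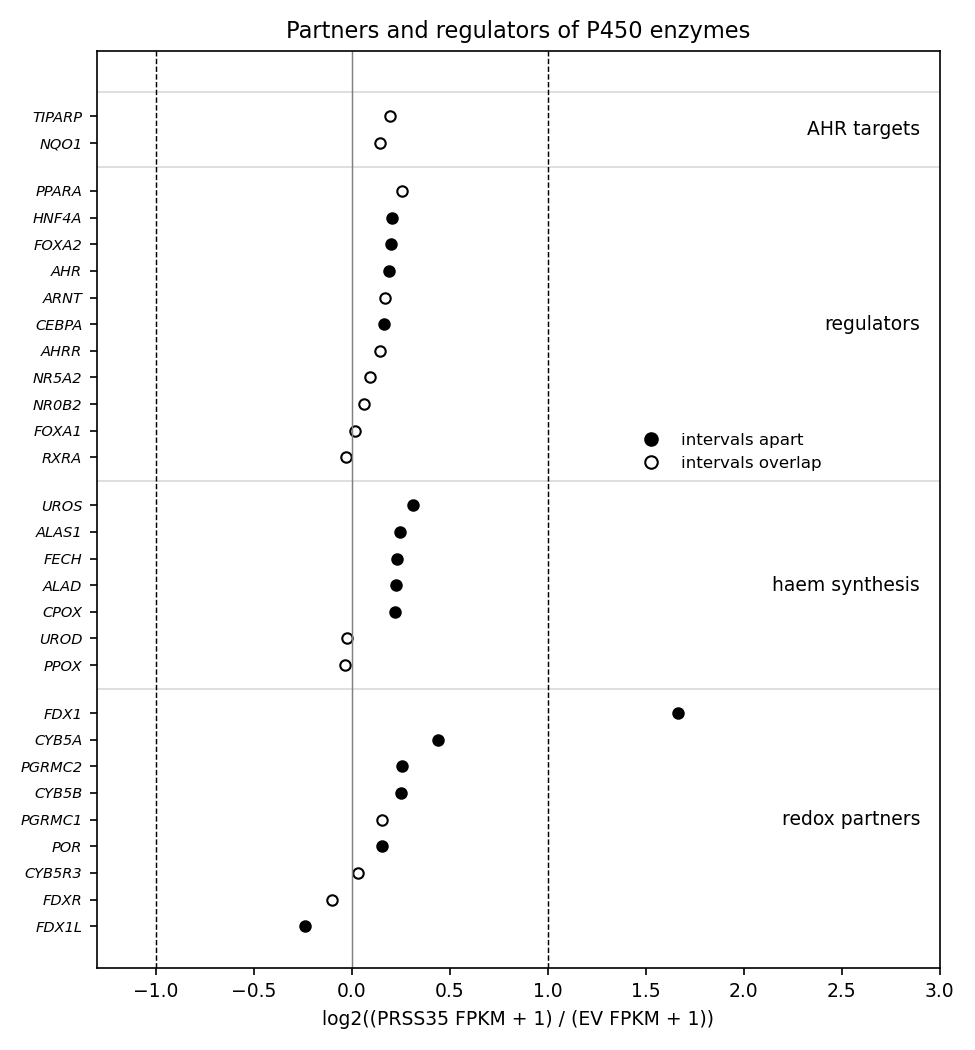
log2((PRSS35 FPKM + 1) / (EV FPKM + 1)) of expressed redox partners, haem synthesis genes, regulators and AHR targets, with filled points where the Cufflinks intervals of the libraries were apart and open points where they overlapped; dashed lines mark 2-fold, and AHRR is drawn among the regulators. FDX1 at 1.66 is the only point beyond a dashed line.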

How the data were processed

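Total RNA of PLC cells was sequenced with 1 library per condition on an Illumina HiSeq2500 after library preparation with the NEBNext Ultra kit. The authors aligned reads to hg19 with TopHat2 2.1.0 and quantified genes with the Cufflinks suite, 2.2.1 per the submitters' processing notes. The annotation release is not given in the sources used here. The deposited tables hold FPKM with lower and upper bounds for each gene, from loci partly assembled in each library separately.

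Rows on alternate haplotypes were left out, and FPKM was summed over rows of a name. The pseudocount was 1 FPKM. Fragment numbers were derived from the bounds, by squaring the ratio of 2 times the FPKM to the gap between it and its upper bound. This takes the bounds as counting error alone, so the numbers are not read counts. The bounds limit precision, and total depth is not in the tables. Members at 1 FPKM or more in either library were named with their bounds, and partners at 2-fold or among the 4 highest of their list. Other genes were named after their values had been seen. Values of some genes in the lists are not reported here. The members and lists were chosen with earlier results of these data known. No test was possible. Alternatives were pseudocounts of 0.1 and 5 FPKM, other filters, scalings, thresholds and treatments of rows. Python 3.11.15 with numpy 2.4.6, pandas 2.3.3 and matplotlib 3.10.9 was used. The calling step was run on simulated data with large changes and counting noise only, which does not test calls near 2-fold.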

Additional observations from a re-analysis of the deposited data

How the results depend on the processing

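No paired analysis was possible because there was a single library for EV and for PRSS35. The median log2 difference of the P450 genes was 0.77 with FPKM divided by its sum, 0 with no filter on low values, and 0.25 for genes assembled in both libraries or in neither, a setting chosen after seeing the data. Division by the sum took the median over all expressed genes to 0.68 instead of 0.06, and the shares past 2-fold to 12.3% higher and 1.62% lower. Under it 4 members were higher by 2-fold (CYP2B6, CYP2D6, CYP2U1 and CYP2C18), and CYP27B1 turned to 0.14 and CYP2S1 to 0.18. The count of members higher by 2-fold was 0 with centring on the median, with a pseudocount of 5 FPKM and with a mean of at least 5 FPKM, which 3 members pass. It was 1 with joined rows left out (CYP2B6) and with upper quartile scaling (CYP2D6), where 1.89% and 2.57% of all expressed genes were higher by 2-fold. With a 1.5-fold threshold it was 3, and 5.23% of all expressed genes were higher by 1.5-fold. With a pseudocount of 0.1 FPKM it was also 3, beside 3.40% of all expressed genes. With a mean of at least 5 FPKM, 0 members had intervals apart and higher and 0 apart and lower. In each setting run, 0 members were lower by 2-fold. CYP2B6 ran from 0.51 with a pseudocount of 5 FPKM to 1.63 with division by the sum, and CYP2D6 from 0.38 to 1.81, the last with a pseudocount of 0.1 FPKM. The wide intervals of CYP2D6 and the low levels of the members under 1 FPKM limit what their values show.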

Other observations

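Human P450 enzymes that the naming rule left out were read in the same libraries. CYP51A1, the lanosterol demethylase of cholesterol synthesis and a housekeeping member of the superfamily, was at 22.2 FPKM (interval 20.9 to 23.6) in EV and 24.2 FPKM (22.7 to 25.6) in PRSS35 cells, second in level to CYP27A1 in both. Its intervals overlapped, with a log2 difference of 0.12. TBXAS1, thromboxane synthase, had 0.0173 FPKM in PRSS35 cells after a listed 0 in EV, and PTGIS, prostacyclin synthase, was listed at 0 in both. The P450 pseudogenes CYP4F30P and CYP4F62P had 0.00805 and 0.0223 FPKM in PRSS35 cells after a listed 0 in EV, and CYP2B7P, CYP2G1P and CYP4Z2P were listed at 0 in both.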
